A study of Mus musculus with 20 samples.

Results

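The Serpina3 antichymotrypsin cluster of the mouse is a run of neighbouring serine protease inhibitor (serpin) genes, and 9 of them are described here: Serpina3c, Serpina3f, Serpina3g, Serpina3h, Serpina3i, Serpina3j, Serpina3k, Serpina3m and Serpina3n. They were picked by name, as the rows carrying these gene symbols among the 37681 genes listed in each of 6 count tables, and all 9 were among the 15578 genes tested. The 6 tables hold liver RNA from 10 male C57/B6J mice aged 12 weeks. Of the mice, 5 had received IL-1β at 20 µg/kg (ILB_9577, ILB_9578, ILB_9579, ILB_9582 and ILB_9583, together ILB) and 5 had received saline (UNT_9574, UNT_9575, UNT_9576, UNT_9580 and UNT_9584, together UNT or untreated), and all livers were taken 4 hours later. RNA of every mouse was read by Illumina HiSeq and again by Ion Torrent Proton, and the reads of each platform were aligned by GSNAP, by STAR, and by STAR followed by Bowtie2 for the reads STAR had left unmapped. The mice carried no other treatment or allele named in the labels. Each comparison of treatments was therefore between 5 and 5 separate mice, whereas the 6 tables are repeat readings of the same RNA and not further replicates.

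Serpins inhibit proteases by offering an exposed stretch, the reactive centre loop, as bait. The protease cuts the loop and is trapped with the serpin in an inactive complex, so the loop sequence sets which proteases are caught. Human SERPINA3, alpha-1-antichymotrypsin, is a single gene and a plasma protein made by the liver that rises in the acute phase response to IL-1 and IL-6, whereas in the mouse the corresponding locus has expanded into a family of closely related genes and pseudogenes. In the mm9 assembly the 9 genes lie on chromosome 12 between 105384592 and 105652539, a span of 267.9 kb, with Serpina3c on the minus strand and the others on the plus strand. Serpina3h is annotated as a processed transcript and the other members as protein-coding genes.

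The sequences shown first are the loops, because the loop is the part of a serpin that meets the protease. In capitals is the part that follows the conserved hinge, which is in lower case, all in coding orientation and read from mm9. Its last bases are alike in most of the printed loops, so the capitals are not variable throughout. The identities given below include that end. Serpina3k is at chr12:105583479-105583556, Serpina3m at chr12:105631979-105632062, Serpina3n at chr12:105651658-105651741, Serpina3h at chr12:105491721-105491804 and Serpina3i at chr12:105506690-105506773, all on the plus strand, and Serpina3c is at chr12:105385523-105385597 on the minus strand.
Serpina3k: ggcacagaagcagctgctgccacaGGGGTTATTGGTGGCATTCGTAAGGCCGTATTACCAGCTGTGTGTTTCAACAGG
Serpina3m: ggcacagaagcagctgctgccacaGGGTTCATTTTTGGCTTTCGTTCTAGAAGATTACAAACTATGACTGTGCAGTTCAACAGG
Serpina3n: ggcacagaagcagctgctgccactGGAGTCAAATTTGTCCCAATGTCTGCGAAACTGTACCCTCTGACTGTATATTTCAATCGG
Serpina3c: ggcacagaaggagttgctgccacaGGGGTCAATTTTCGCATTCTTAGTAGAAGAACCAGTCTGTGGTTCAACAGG
Serpina3h: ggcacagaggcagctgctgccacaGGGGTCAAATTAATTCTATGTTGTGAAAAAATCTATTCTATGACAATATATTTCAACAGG
Serpina3i: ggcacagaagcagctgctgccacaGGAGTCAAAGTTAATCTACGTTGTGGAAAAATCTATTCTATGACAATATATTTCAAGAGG

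In the capitals, Serpina3h and Serpina3i were 88.33% identical, the closest pair of the 9 loops, and Serpina3k and Serpina3m were 68.33% identical. Serpina3g and Serpina3j, whose loops are not printed, were the farthest apart at 43.33%. Identity over whole spliced transcripts was taken over aligned bases only. That of the loops was taken over the longer loop, so their values are not on one scale. The closest relative of Serpina3k was Serpina3m at 91.56% identity, that of Serpina3h was Serpina3i at 91.45%, and that of Serpina3c was Serpina3m at 89.98%. Of the 50-base words in a member's transcript, between 3.13% (Serpina3j) and 24.4% (Serpina3h) also occurred in another transcript. For words of 125 bases, the Illumina read length, the share ran from 0% in Serpina3c, Serpina3j and Serpina3n to 2.94% in Serpina3k. How reads from near-identical stretches were assigned was not tested, so every count of these genes is uncertain. These shares cover exact matches only and do not bound that uncertainty.

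Libraries held between 10568530 and 16439683 reads in genes, of which the 9 members took 125178 to 352839. The 2 libraries of untreated mouse UNT_9584 agreed least: their deviations from the group means correlated at 0.198 over 11077 genes with STAR + Bowtie2, the lowest of the 3 aligners, while the lowest value for any other mouse was 0.535. With each aligner, the Illumina library of UNT_9584 correlated better with another mouse's Ion Torrent library than with its own. Every other mouse matched best with its own number. The pairing used below rests on the shared number, and why UNT_9584 departed was not tested. In bulk liver RNA, fewer cells of a type and less RNA per cell cannot be told apart. Hepatocyte markers (7 of 7 listed, none at 0) summed to 63560 to 79152 CPM (counts scaled to a common library total) in ILB and 101355 to 119314 in UNT with Illumina GSNAP, and neutrophil markers (8 of 8 listed, none at 0) to 47.8 to 105 in ILB and 2.57 to 5.81 in UNT. Their part in the differences below was not tested.

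With IL-1β most of the cluster rose and no member was called lower. By edgeR's quasi-likelihood test with Benjamini-Hochberg adjustment over all genes tested, 8 of the 9 members were called higher with Illumina GSNAP, where 23.7% of all genes were, and 7 with Illumina STAR (22.7% of all genes) and 8 with Illumina STAR + Bowtie2 (22.9%). On Ion Torrent the counts were 8 by GSNAP (22.5%), 7 by STAR (20.3%) and 8 by STAR + Bowtie2 (22.8%). By edgeR 0 members were called lower in any table, where 23.9%, 22.9% and 24.4% of all genes were for Illumina (GSNAP, STAR, STAR + Bowtie2) and 23.9%, 21.8% and 24% for Ion Torrent, 0 had an unadjusted p below 0.05 in that direction, and DESeq2, limma-voom and the Mann-Whitney test called 0 lower as well. The Mann-Whitney test called 7, 7 and 8 members higher for Illumina, where 14.3%, 13.8% and 14.7% of all genes were, and 8, 7 and 8 for Ion Torrent (13.2%, 11.8% and 13.6%). Every member but Serpina3j and Serpina3k, 7 of 9, was called higher in all 6 tables, as were 17.3% of all genes tested, while 17.6% were called lower in all 6. The median log2 fold change of the members was 3.98 with Illumina GSNAP, or 2.81 with Serpina3j held at its lower bound, and 1.69 with Ion Torrent GSNAP, while that of all genes tested was 0 in both. The 5 ILB libraries lay above all 5 UNT libraries for 7 members with Illumina GSNAP (14.4% of all genes), 7 with Illumina STAR (13.9%), 8 with Illumina STAR + Bowtie2 (14.7%), 8 with Ion Torrent GSNAP (12.8%), 7 with Ion Torrent STAR (11.6%) and 8 with Ion Torrent STAR + Bowtie2 (13.2%).

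**Figure D1:**
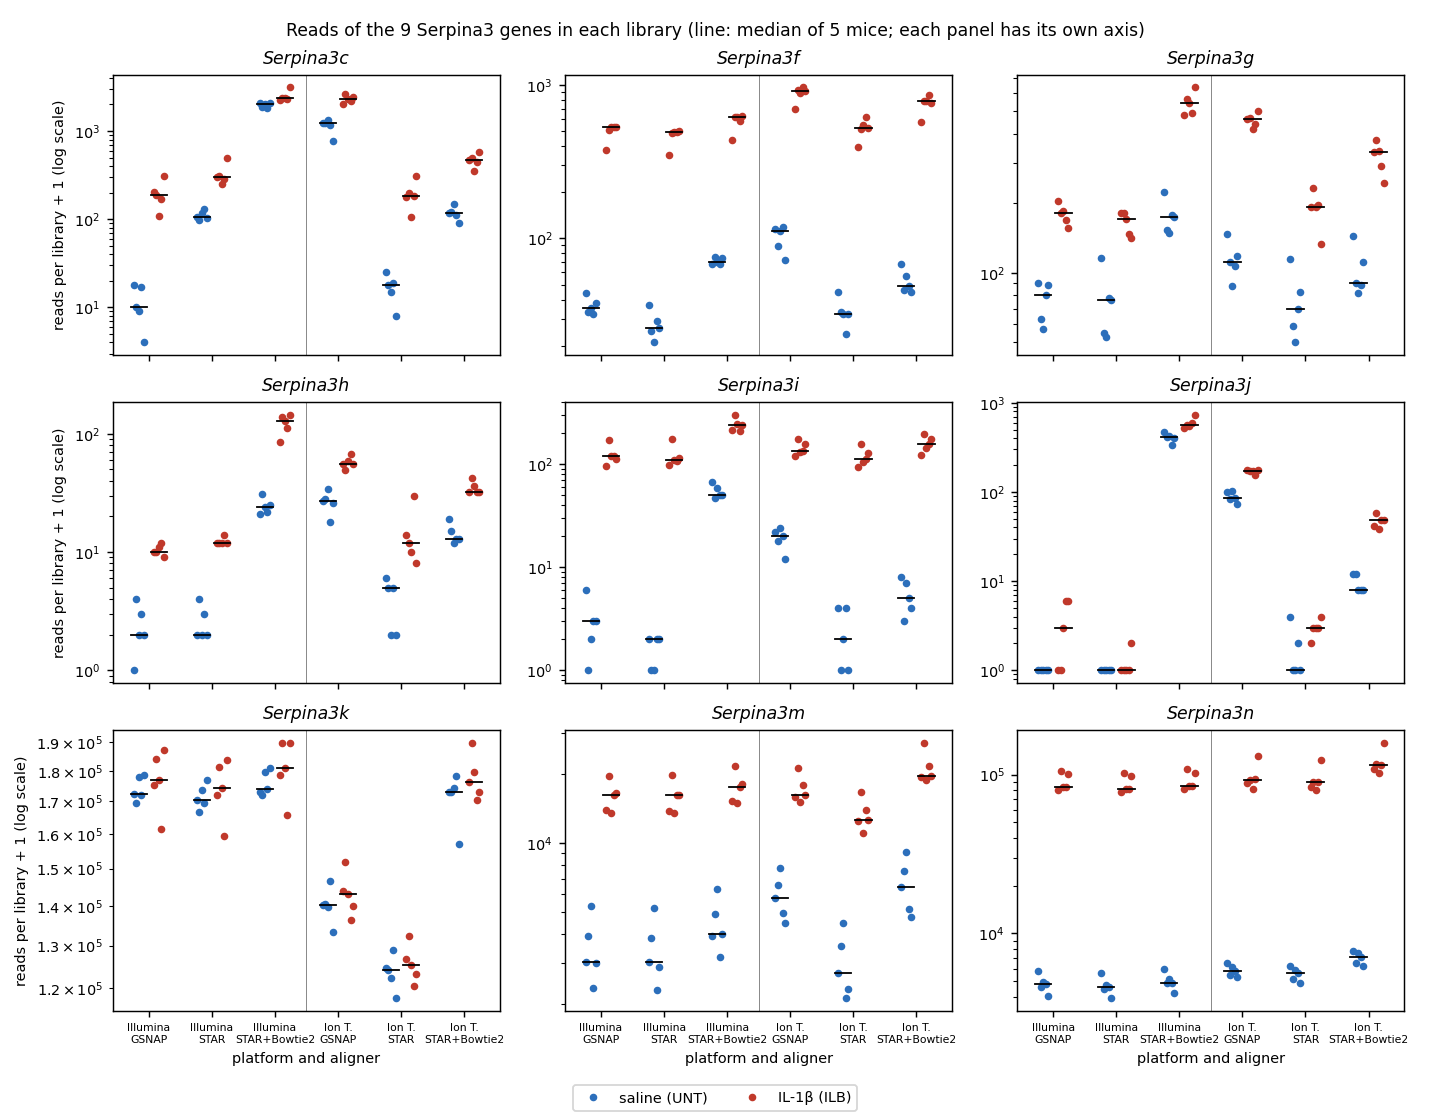
Reads per library plus 1 (log scale, each panel with its own axis) of the 9 genes in the 6 combinations of platform and aligner, a point for each of 5 saline (blue) and 5 IL-1β (red) mice and a line at the median. The groups are far apart for Serpina3n in every panel column and overlap for Serpina3k in every one, and untreated Serpina3c runs from 3 to 17 reads with Illumina GSNAP to 1832 to 2058 with Illumina STAR + Bowtie2.

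Serpina3n, a secreted inhibitor of granzyme B and of neutrophil proteases, carried most of the gain in reads. With Illumina GSNAP the 5 ILB mice had 80331, 105913, 83086, 83611 and 100954 reads of it. The 5 UNT mice had 5805, 4581, 4962, 4836 and 4017. The lowest treated library thus lay far above the highest untreated one. On Ion Torrent with the same aligner the ILB libraries held 88115, 92388, 81523, 93332 and 130074 reads and the UNT libraries 6491, 5484, 6136, 5823 and 5320. The separation was as complete there, with mouse ILB_9583 standing above the other treated mice. The log2 fold change was 4.41 ± 0.14 (SE) with Illumina GSNAP (edgeR adjusted p = 2.85e-11) and 4.21 ± 0.15 with Ion Torrent GSNAP (edgeR adjusted p = 2.47e-11). Over the 6 tables it ran from 4.21 to 4.42, the narrowest range of the members called higher in every table.

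Serpina3k, known as kallikrein-binding protein or contrapsin, was the most abundant member before and after treatment. With Illumina GSNAP it had 175209, 184021, 176979, 161565 and 186979 reads in ILB. In UNT it had 172441, 169466, 177981, 171977 and 178624. Both the lowest and the highest library were treated ones, so the groups overlapped, as they did in each of the other 5 tables. Its log2 fold change was 0.19 ± 0.11 (SE) with Illumina GSNAP (edgeR adjusted p = 0.164) and lay between 0.18 and 0.20 in all 6 tables, with adjusted p from 0.124 to 0.172. This call depended on the test. DESeq2 called Serpina3k higher in 6 of 6 tables (adjusted p 0.00947 to 0.0251) and limma-voom in 4 (0.0120 to 0.0715 over the 6), whereas the Mann-Whitney test called it in 0. Without TMM scaling, which moved the median of all genes with Illumina GSNAP to -0.107, the log2 fold change of Serpina3k was 0.07 to 0.09.

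Serpina3m, the closest relative of Serpina3k in sequence, rose in every table. With Illumina GSNAP the ILB libraries had 13885, 19597, 13519, 16172 and 16410 reads. The UNT libraries had 3040, 3921, 5341, 2336 and 2994. The groups did not overlap, and mouse UNT_9576 was the highest of the untreated animals on both platforms. The log2 fold change was 2.35 ± 0.19 (SE) with Illumina GSNAP (edgeR adjusted p = 2.64e-07) and 1.69 ± 0.14 with Ion Torrent GSNAP (edgeR adjusted p = 1.83e-07), where UNT libraries held 4467 to 7781 reads and ILB libraries 14987 to 21185.

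The composition of the cluster's reads changed with treatment. The 9 members together made up 2.53% ± 0.20 (SD, n = 5) of all gene reads in ILB and 1.57% ± 0.03 (SD, n = 5) in UNT with Illumina GSNAP, a ratio of 1.61, and 1.80% ± 0.14 and 1.02% ± 0.03 with Ion Torrent GSNAP, a ratio of 1.76. Within the cluster's reads Serpina3k took 95.4% ± 0.68 (SD) in UNT and 62.3% ± 2.35 in ILB with Illumina GSNAP. Serpina3n took 2.65% ± 0.37 in UNT and 31.8% ± 1.84 in ILB, and Serpina3m 1.93% ± 0.60 and 5.58% ± 0.62. For each of these 3 genes the ILB and UNT shares did not overlap in any of the 6 tables (two-sided exact permutation p = 0.00794, the smallest that 5 against 5 mice allow). Of 54 comparisons of a share, 9 members in 6 tables, those with an unadjusted exact permutation p below 0.05 numbered 8, 7 and 8 for Illumina (GSNAP, STAR, STAR + Bowtie2) and 8, 7 and 9 for Ion Torrent. Leaving out single mice gave 6 to 8 for Ion Torrent GSNAP and 6 to 8 for Ion Torrent STAR. For Ion Torrent GSNAP, Serpina3c (exact permutation p up to 0.0794) and Serpina3h (up to 0.127) each missed 0.05 in most of these removals. Serpina3h also did in most removals for Ion Torrent STAR (up to 0.0952). Shares within a library sum to 100%, so a gain of Serpina3n lowers the share of the others whatever their own reads did.

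**Figure D2:**
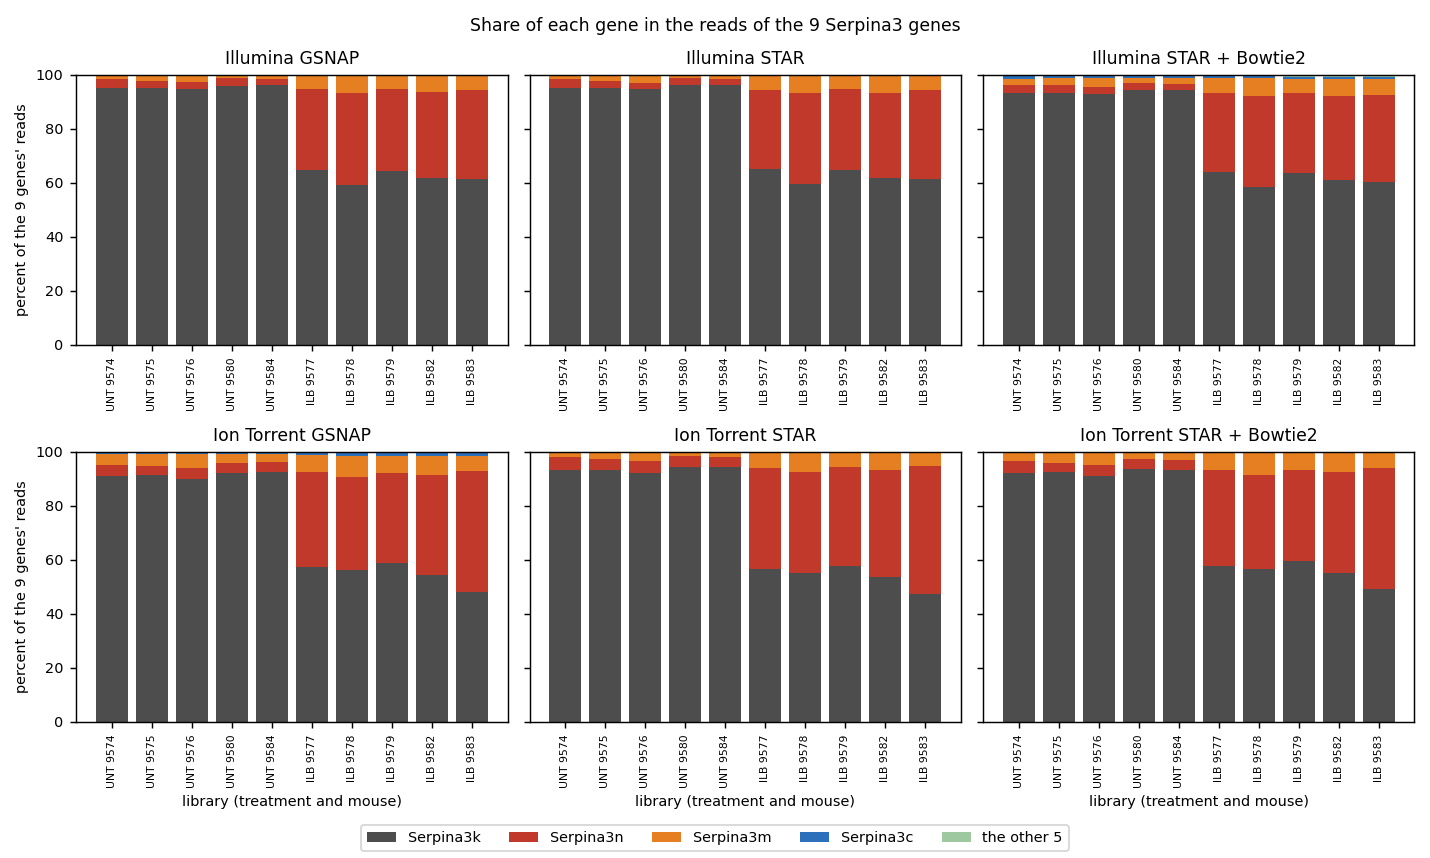
Percent of the 9 genes' reads taken by Serpina3k (grey), Serpina3n (red), Serpina3m (orange), Serpina3c (blue) and the other 5 (green) in each library, with a panel for each platform and aligner. Serpina3k fills at least 89.9% of every UNT bar and between 47.3% and 65.0% of every ILB bar, and Serpina3n most of the remainder in ILB.

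The same shares were also taken over the 8 members other than Serpina3k, a calculation added after the values were seen. Serpina3n and Serpina3m then stood close together in UNT, at 57.6% ± 7.77 (SD) and 40.9% ± 8.09 with Illumina GSNAP. In ILB they were at 84.3% ± 0.97 and 14.8% ± 0.98. Although its reads rose, Serpina3m lost 21.1 to 31.8 percentage points of this total across the 6 tables (exact permutation p = 0.00794 in each). Serpina3g also lost share in all 6 tables, from 0.91% ± 0.28 in UNT to 0.17% ± 0.03 in ILB with Illumina GSNAP (exact permutation p = 0.00794).

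Levels of different genes can be compared only per length, here as CPM per kilobase of exon. In UNT with Illumina GSNAP the order was Serpina3k at 9036 ± 196 (SD, n = 5), Serpina3n at 201 ± 27.9, Serpina3m at 182 ± 59.1, Serpina3g at 2.79 ± 0.57, Serpina3f at 1.33 ± 0.19 and Serpina3c at 0.41 ± 0.23, with Serpina3h and Serpina3i under 0.1 and Serpina3j at 0. The neighbours Serpina3n and Serpina3m overlapped in this order, as did each neighbouring pair from Serpina3c down to Serpina3j. In ILB the order was Serpina3k at 9506 ± 526, Serpina3n at 3909 ± 514, Serpina3m at 853 ± 133, Serpina3f at 19.3 ± 2.72, Serpina3c at 7.81 ± 2.92, Serpina3g at 6.87 ± 0.69, Serpina3i at 4.97 ± 1.17, Serpina3h at 0.58 ± 0.07 and Serpina3j at 0.10 ± 0.10. The ranges of Serpina3c and Serpina3g overlapped, as did those of Serpina3g and Serpina3i, and no other neighbours in this order did. With Ion Torrent GSNAP Serpina3c held the fourth place in both groups, at 34.4 ± 6.38 in UNT and 71.8 ± 7.11 in ILB.

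Serpina3g, also called Spi2A, is an intracellular serpin that inhibits cysteine cathepsins. It rose by the least of the members called in all 6 tables with Illumina GSNAP, Illumina STAR and Ion Torrent STAR. With Illumina GSNAP the ILB libraries had 204, 180, 184, 168 and 155 reads and the UNT libraries 89, 62, 56, 79 and 88. The groups did not overlap, and the log2 fold change was 1.42 ± 0.15 (SE; edgeR adjusted p = 3.26e-06). With Ion Torrent GSNAP it was 2.17 ± 0.13 (edgeR adjusted p = 6.07e-09), from 420 to 500 reads in ILB and 87 to 146 in UNT.

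Serpina3f, whose transcript is closest to that of the pseudogene Serpina3e-ps at 90.25% identity, rose more. Its ILB libraries had 374, 511, 534, 534 and 531 reads with Illumina GSNAP and its UNT libraries 43, 32, 34, 31 and 37. Mouse ILB_9577 was the lowest treated animal in each of the 6 tables and still lay above every untreated one. The log2 fold change was 3.98 ± 0.15 (SE; edgeR adjusted p = 1.68e-10), and 3.29 ± 0.15 with Ion Torrent GSNAP, where UNT libraries held 71 to 117 reads.

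Serpina3i was nearly silent in untreated liver with some aligners and not with others. With Illumina STAR the ILB libraries had 97, 177, 110, 107 and 115 reads and the UNT libraries 1, 0, 0, 1 and 1. Summed over each group this is 606 against 3 reads, a ratio of 209 once scaled to depth (95% interval 71.2 to 1016, which covers counting error only). With Illumina STAR + Bowtie2 the same libraries gave 211 to 301 reads in ILB and 46 to 67 in UNT, and a log2 fold change of 2.31 ± 0.14 (SE; edgeR adjusted p = 1.42e-08). On Ion Torrent the untreated counts ran from 11 to 23 by GSNAP and from 2 to 7 by STAR + Bowtie2, and STAR alone gave 0 to 3. The treated counts stayed between 93 and 197 there, and Serpina3i was called higher in all 6 tables.

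Serpina3h, the processed transcript closest to Serpina3i, had few reads. With Illumina GSNAP it had 9, 9, 10, 11 and 8 in ILB and 0, 3, 1, 2 and 1 in UNT, and with Illumina STAR + Bowtie2 it had 85 to 143 and 20 to 30. The groups were apart in both, with a log2 fold change of 2.81 ± 0.44 (SE; edgeR adjusted p = 0.000112) in the former and 2.504 ± 0.189 (edgeR adjusted p = 9.86e-08) in the latter. With Ion Torrent GSNAP, at 48 to 66 reads in ILB and 17 to 33 in UNT, it was 1.29 ± 0.20 (edgeR adjusted p = 7.50e-05).

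Serpina3j was the member whose presence itself depended on the aligner. In all 10 Illumina libraries together it had 12 reads with GSNAP, 1 read with STAR and, with STAR + Bowtie2, 522 to 728 reads in each ILB and 337 to 473 in each UNT library. With Illumina GSNAP the 12 reads were in 3 of the 5 treated mice (0, 0, 2, 5 and 5) and 0 reads were in UNT, which gives at least 4.14-fold higher in ILB against a floor of 3 reads over the untreated group. This was called by edgeR (adjusted p = 0.0269) and lost without mouse ILB_9582 (0.0625) or mouse ILB_9583 (0.0631). With Illumina STAR no fold can be given, and with Ion Torrent STAR it had 1 to 3 reads in ILB and 0 to 3 in UNT and was not called (edgeR adjusted p = 0.202). The log2 fold change was 0.69 ± 0.11 (SE; edgeR adjusted p = 0.000162) with Illumina STAR + Bowtie2, 1.11 ± 0.13 (5.49e-06) with Ion Torrent GSNAP and 2.54 ± 0.25 (7.67e-07) with Ion Torrent STAR + Bowtie2, where ILB libraries had 37 to 57 reads and UNT libraries 7 to 11.

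Serpina3c differed between tables in both its level and its fold change. With Illumina GSNAP the ILB libraries had 202, 188, 108, 167 and 308 reads and the UNT libraries 17, 9, 8, 16 and 3. With Illumina STAR + Bowtie2 the libraries were the same, but their reads had been sampled separately. Counts there were 2242, 2368, 2354, 2293 and 3128 in ILB and 2055, 1861, 2011, 1832 and 2058 in UNT. The groups were apart in both tables, yet the UNT libraries differed between aligners by far more than the treatments differed within STAR + Bowtie2. The log2 fold change was 4.36 ± 0.34 (SE) with Illumina GSNAP (edgeR adjusted p = 1.80e-07), 1.75 ± 0.18 with STAR (1.49e-06) and 0.48 ± 0.11 with STAR + Bowtie2 (0.00196). On Ion Torrent the aligners fell in another order, with 1.17 ± 0.13 for GSNAP (edgeR adjusted p = 2.87e-06), 3.76 ± 0.31 for STAR (5.55e-08) and 2.14 ± 0.15 for STAR + Bowtie2 (3.35e-08). Where the untreated count was high the fold was small: UNT libraries held 769 to 1332 reads with Ion Torrent GSNAP and 7 to 24 with Ion Torrent STAR.

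The aligners were also set against each other within a library, as the ratio of a gene's reads with STAR + Bowtie2 to its reads with GSNAP, a description added after the values were seen. For Serpina3c in Illumina libraries this ratio was 10.2 to 21.8 in ILB and 114.5 to 686 in UNT. On Ion Torrent it was below 1, at 0.149 to 0.236 in ILB and 0.0932 to 0.117 in UNT. The abundant members had ratios closer to 1. Serpina3k was at most 1.03 and Serpina3n 1.01 to 1.06 in all Illumina libraries, and on Ion Torrent they ran from 1.18 to 1.25 and from 1.17 to 1.27. These ratios were not scaled to library totals, whose Ion Torrent ILB medians were 14553044 with GSNAP and 15901464 with STAR + Bowtie2. Once scaled, the mean log2 ratio of Serpina3k was -0.0068 in ILB and -0.0194 in UNT on Illumina. On Ion Torrent it was 0.186 and 0.165. Serpina3m had 1.08 to 1.11 in ILB and 1.18 to 1.36 in UNT on Illumina, and Serpina3f 1.10 to 1.21 and 1.56 to 2.34. With Illumina STAR + Bowtie2 there were 13.7 ± 1.67 (SD, n = 5) Serpina3c reads per 1000 Serpina3k reads in ILB and 11.2 ± 0.52 in UNT, and with Ion Torrent GSNAP 16.2 ± 1.33 and 8.15 ± 1.43. Whether reads of Serpina3k were counted under Serpina3c was not tested.

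**Figure D3:**
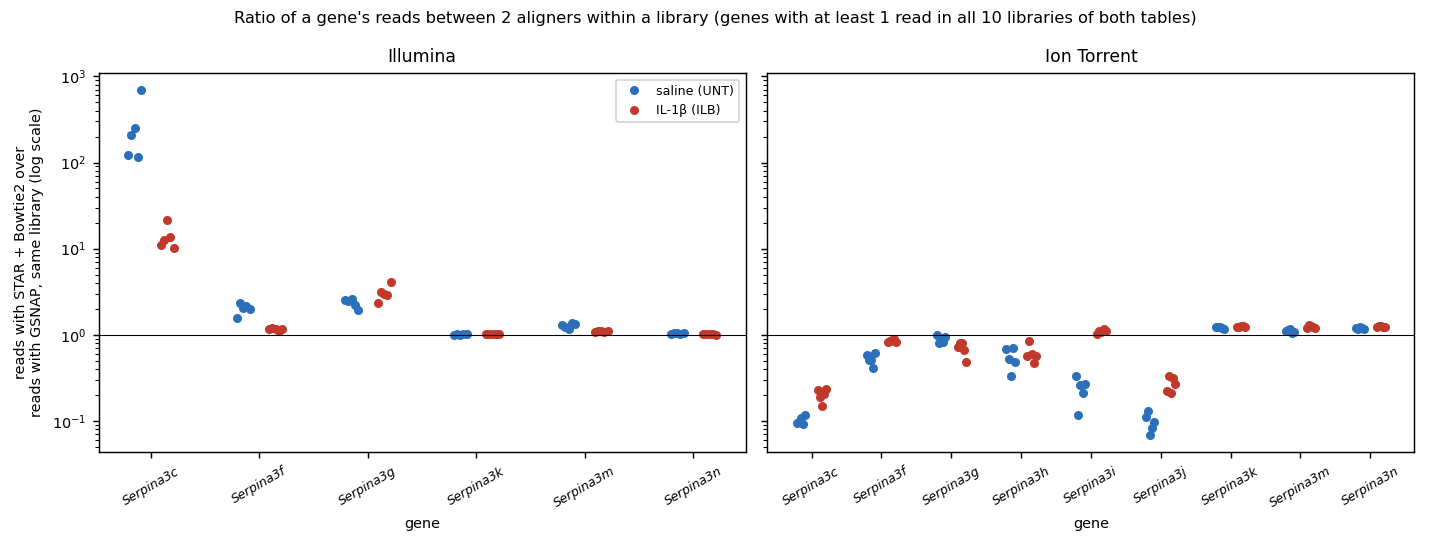
Ratio of a gene's reads with STAR + Bowtie2 to its reads with GSNAP in the same library (log scale), a point for each saline (blue) and IL-1β (red) mouse, for genes with at least 1 read in all libraries of both tables. Reads are not scaled to library totals. Serpina3c lies far above 1 on Illumina and below 1 on Ion Torrent, while Serpina3k, Serpina3m and Serpina3n lie between 1 and 1.36 on both.

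The platforms were then compared in their effects and not in their levels, by the platform-by-treatment term, which is the log2 fold change on Ion Torrent minus that on Illumina. The term was fitted by edgeR with the mouse as a block, since libraries of the same number came from the same animal. With GSNAP 3 of the 9 members were called, where 0.0642% of all genes were. These were Serpina3c at -3.17 ± 0.28 (SE; edgeR adjusted p = 3.96e-07), Serpina3i at -2.93 ± 0.41 (0.000742) and Serpina3m. With STAR the only gene called of all those tested, 0.00642%, was Serpina3c, at 1.998 ± 0.212 (8.02e-06). With STAR + Bowtie2 4 members were called (0.077% of all genes): Serpina3c at 1.65 ± 0.12 (4.50e-08), Serpina3i at 2.94 ± 0.25 (5.31e-07), Serpina3j at 1.84 ± 0.20 (3.04e-05) and Serpina3f at 0.80 ± 0.14 (0.0154). The call of Serpina3f was lost by limma-voom (adjusted p = 0.0723), without ILB_9582 (edgeR adjusted p = 0.0574) and without UNT_9575 (0.191). Serpina3c and Serpina3i thus rose less on Ion Torrent with GSNAP and more with STAR + Bowtie2. The term of Serpina3k was between -0.02 and 0.00 with each aligner and that of Serpina3n between -0.22 and -0.13, and neither was called.

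Without the block for the mouse the pairing was lost and 2, 0 and 3 members were called for the 3 aligners (GSNAP, STAR, STAR + Bowtie2), because Serpina3m with GSNAP (edgeR adjusted p = 1), Serpina3c with STAR (0.251) and Serpina3f with STAR + Bowtie2 (0.740) no longer passed. The shares of all genes called without the block were 0.0193%, 0% and 0.0385%. Without mouse UNT_9584, whose libraries agreed least, 5 members were called with GSNAP (0.148% of all genes), where Serpina3f and Serpina3g joined. There were 1 with STAR (0.0642%) and 5 with STAR + Bowtie2 (0.109%), where Serpina3m joined at -0.37 (edgeR adjusted p = 5.97e-05). With this mouse the shares of all genes were lower, at 0.0642%, 0.00642% and 0.077%.

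**Figure D4:**
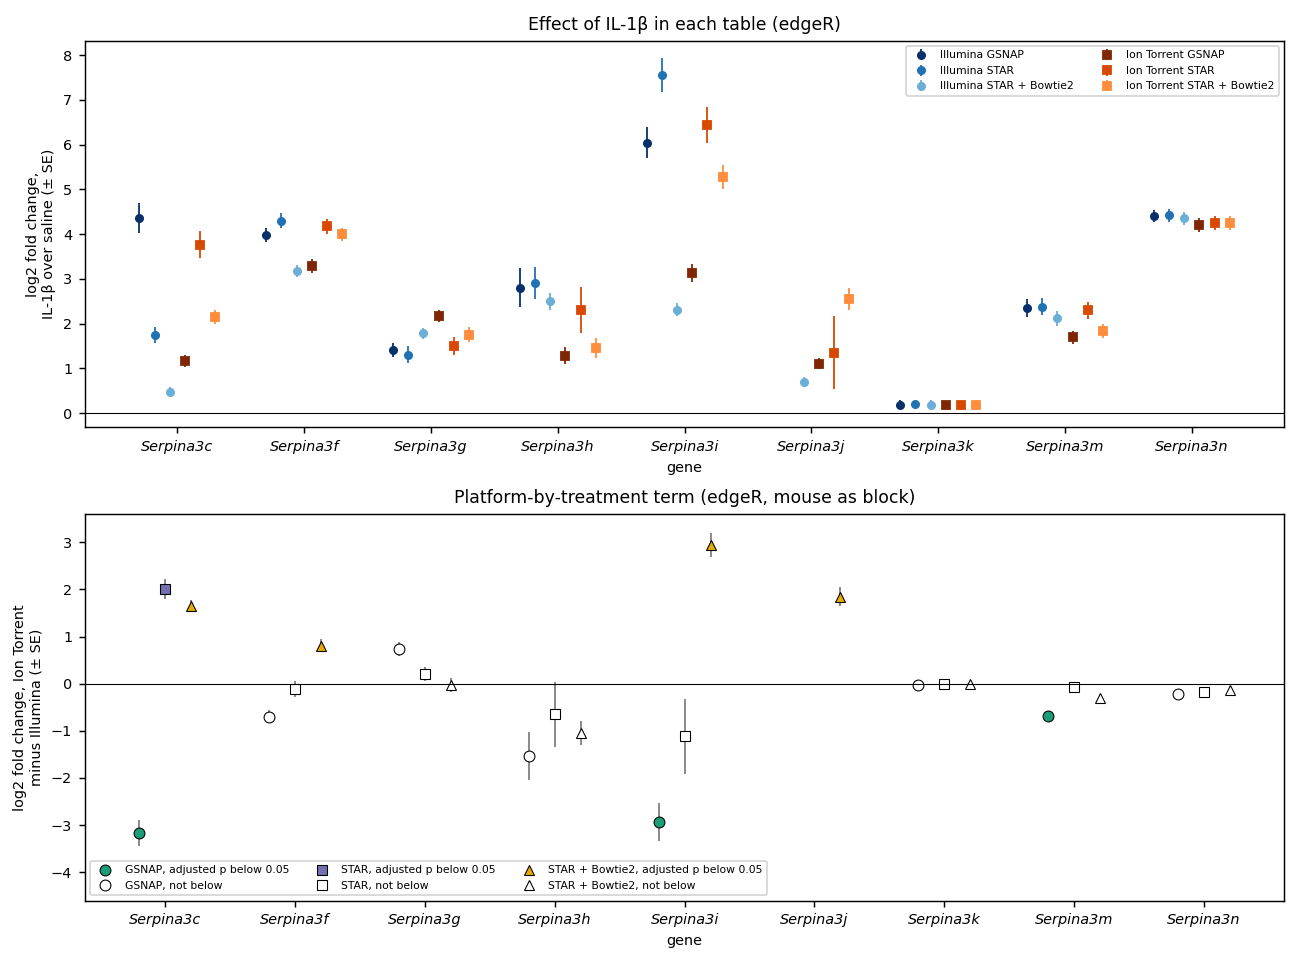
Above, log2 fold change of IL-1β over saline (± SE, edgeR) of each gene in the 6 tables, circles for Illumina and squares for Ion Torrent. Below, the platform-by-treatment term (± SE), filled where its adjusted p is below 0.05. Folds of Serpina3j against an untreated group with 0 reads are not drawn. The 6 values of Serpina3n lie within 4.21 to 4.42, while those of Serpina3c run from 0.48 to 4.36 and its term changes sign between aligners.

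Shares of the cluster's reads also differed between platforms within the same mouse. Of 27 comparisons, 9 members with 3 aligners, those with an unadjusted two-sided exact sign-flip permutation p below 0.05 over 10 mice numbered 9 for GSNAP and 8 for each of the other aligners. The share of Serpina3k was lower on Ion Torrent in 10 of 10 mice with every aligner, by 5.66 percentage points for GSNAP, 5.19 for STAR and 3.41 for STAR + Bowtie2 (exact permutation p = 0.00195 in each, the smallest that 10 mice allow). Serpina3n was higher in 10 of 10 mice with every aligner, by 3.15, 4.97 and 3.59 points. Serpina3c took 0.0368% of the cluster's reads on Illumina and 0.815% on Ion Torrent with GSNAP, higher in 10 of 10 mice. With STAR + Bowtie2 it took 0.941% and 0.104%, lower in 10 of 10 mice, and with STAR 0.0892% and 0.0469%, also lower in 10 of 10. Serpina3j followed the same pattern between GSNAP and STAR + Bowtie2, at 0.0613% on Ion Torrent against 0.000427% on Illumina and at 0.00947% against 0.209%. The comparisons that missed 0.05 were Serpina3m with STAR (exact permutation p = 0.0918) and Serpina3f with STAR + Bowtie2 (exact permutation p = 0.125).

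The promoters of the members are shown where they share letters. RefSeq promoters on GRCm38.p6, from 250 bases before to 50 bases after the start, were at hand for 6 of the 9 members, and Serpina3h, Serpina3k and Serpina3m had no entry. The word TTCCTAAGA, on either strand, was found in the promoters of Serpina3c, Serpina3f, Serpina3g, Serpina3i and Serpina3n and in 111 of 32851 promoters in the table (0.338%). It was picked from these promoters with the fold changes already known, so its share is a description. In Serpina3g, whose stretch is not printed, the word began 35 bases after the start. In the other members holding it the word lay before the start. Printed are the stretches around it, with the word in capitals, for Serpina3c at chr12:104153886-104153954 on the minus strand, Serpina3f at chr12:104214452-104214520, Serpina3i at chr12:104263058-104263121 and Serpina3n at chr12:104406623-104406691, these 3 on the plus strand.
Serpina3c: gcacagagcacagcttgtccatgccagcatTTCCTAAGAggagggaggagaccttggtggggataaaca
Serpina3f: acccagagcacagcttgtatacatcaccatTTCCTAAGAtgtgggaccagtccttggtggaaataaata
Serpina3i: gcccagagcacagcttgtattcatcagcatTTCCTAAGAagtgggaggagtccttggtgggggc
Serpina3n: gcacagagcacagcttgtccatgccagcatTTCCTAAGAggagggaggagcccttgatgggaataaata

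The whole promoters of Serpina3c and Serpina3n were 93.54% identical. Their log2 fold changes were 4.36 and 4.41 with Illumina GSNAP. Over the 6 tables, which read the same RNA, they ran from 0.48 to 4.36 and from 4.21 to 4.42. A STAT word, TTCNNNGAA, was found in Serpina3f, Serpina3g and Serpina3i and in 8.298% of all promoters. A C/EBP word, TTNNGNAAT, was found in 5 members and in 11.46% of all promoters. The STAT and C/EBP words were searched on both strands. An NF-kB word, whose letters are not printed, was found in Serpina3g, Serpina3i and Serpina3n and in 1.629% of all promoters. A looser form of it was found in the same members and in 5.555% of all promoters. For each of these words a match is a match of letters and not a binding site.

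The reads of pseudogenes at the locus also differed between tables. Serpina3e-ps, the annotated pseudogene closest to Serpina3f and Serpina3n, had 3 to 7 reads in ILB and 0 to 1 in UNT with Illumina GSNAP, and 294 to 485 and 139 to 179 with Illumina STAR + Bowtie2. On Ion Torrent it had 688 to 880 and 169 to 273 with GSNAP, and 121 to 183 and 30 to 51 with STAR + Bowtie2. Serpina3d-ps had 0 to 2 reads in ILB and 0 in UNT with Illumina GSNAP, and 352 to 752 and 233 to 441 with Ion Torrent GSNAP. Of 16 neighbouring serpin genes and pseudogenes of the chromosome 12 cluster, 4 were called higher and 6 lower in all 6 tables, beside 17.3% and 17.6% of all genes, and Serpina3e-ps is among those 16. Serpina10, the inhibitor of coagulation factor Xa that acts with protein Z, rose by 1.97 ± 0.11 (SE) on the log2 scale (edgeR adjusted p = 9.48e-09, Illumina GSNAP), and Serpina9 fell by 2.48 ± 0.44 (0.000334). Of 15 tested serpins elsewhere in the genome, 3 were called higher and 4 lower in all 6 tables. Serpind1, heparin cofactor II, fell by 1.25 ± 0.13 (SE) on the log2 scale (edgeR adjusted p = 3.22e-06, Illumina GSNAP).

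Among 27 tested genes of IL-1 and IL-6 signalling, 17 were called higher and 5 lower in all 6 tables (17.3% and 17.6% of all genes), with a median log2 fold change of 0.88 with Illumina GSNAP. Irak3, a brake on IL-1 receptor signalling, rose by 4.61 ± 0.35 (SE; edgeR adjusted p = 1.32e-07), and Socs3, the feedback inhibitor of IL-6 receptor signalling, by 2.29 ± 0.39 (0.000199). All 18 other positive acute phase proteins of the list were called higher in all 6 tables, with a median of 2.39 with Illumina GSNAP. Of 8 tested proteases that such serpins inhibit or meet, 2 were called higher and 2 lower in all 6 tables, shares near the 17.3% and 17.6% of all genes. Klkb1, plasma prekallikrein, fell by 1.27 ± 0.13 (edgeR adjusted p = 2.26e-06), while Ctsl, cathepsin L, rose by 0.86 ± 0.11 (1.59e-05).

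Once each mouse was set against its own treatment group, the genes that varied most like Serpina3n over the 10 mice were Slc6a8 and Flot2, with a Pearson correlation of at least 0.836 and 0.835 in both GSNAP tables, and Qsox1 at 0.801. Those most like Serpina3k were Zfp207 at 0.682 and Gm10704 at 0.659. These were the leading ones of 8010 genes, the points share their libraries and depth, and the values are given as a description.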

How the data were processed

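Liver RNA of 10 mice was read on 2 platforms and aligned in 3 ways, giving 6 tables of 10 libraries. The deposited values are gene counts, which the authors made with STAR 2.5.1b, GSNAP 2015-12-31 or STAR with Bowtie2 2.2.9 (per the submitters' processing notes) on mm9 with Ensembl gene models. Before counting they used the PORT pipeline to remove ribosomal and mitochondrial reads and to sample each library of a platform and aligner to an equal number of reads, so totals do not show the original depth. Whether an Illumina count is a read or a read pair is not given in the sources used here.

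From these counts, genes with at least 5 reads in at least 5 samples of a table were taken as detected, and the genes tested were the same in all tables. Each table was fitted by edgeR 4.0.16 (quasi-likelihood, TMM scaling, R 4.3.3) and p-values were adjusted by Benjamini-Hochberg over all genes tested, with a threshold of 0.05. The platform-by-treatment term was fitted per aligner with the mouse as a block. Same-numbered libraries came from the same animal, and their deviations correlated at 0.198 to 0.718. The Illumina library of UNT_9584 alone did not correlate best with the Ion Torrent library of its own number. Shares were compared by exact permutation tests (scipy 1.17.1), and their p-values are unadjusted. Alternatives were DESeq2 1.42.0, limma-voom (limma 3.58.1), the study's Mann-Whitney test, other scaling, other detection rules and leaving out each mouse. Tests were checked on simulated counts. Intervals and floors cover counting error only. Loops and transcripts were read from mm9 with an annotation older than the authors' Ensembl release, and promoters from RefSeq.

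The 9 members were named as a rule, with up to 4 genes of each other list. Members and lists were chosen with earlier results of these data known.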

Additional observations from a re-analysis of the deposited data

Results flagged for a closer look

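In groups of 5 mice a library was marked where its gap to the nearest other exceeded 0.71 of the group's range. Chance does this in about 1 of 20 independent groups of normal values, and 23 of 228 groups (10.1%) were marked. The 228 groups were not independent, since the same mice recur with each platform and aligner, and a gene's level and share were counted separately. Neither this percentage nor a tally per mouse can therefore be read as an excess. Mouse ILB_9583 accounted for 9. Its Serpina3n level was 8971 CPM with Ion Torrent GSNAP, 10122 with Ion Torrent STAR and 9998 with Ion Torrent STAR + Bowtie2, above the other treated mice. Its Serpina3c level was 46.4 CPM with Illumina STAR (a share of 0.165% of the cluster's reads) and 270.4 with Illumina STAR + Bowtie2, also above. Its single Serpina3j read with Illumina STAR gave 0.0941 CPM and a share of 0.000335%. Its Serpina3g share was low, at 0.0511%, with Ion Torrent STAR.

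Mouse ILB_9577 was low for Serpina3f, at 33.1 CPM with Illumina GSNAP, 32.8 with Illumina STAR, 37.8 with Illumina STAR + Bowtie2 and 47.3 with Ion Torrent GSNAP. Its Serpina3h share was low, at 0.0304%, with Illumina STAR + Bowtie2, and its Serpina3g share high, at 0.185%, with Ion Torrent GSNAP. Mouse ILB_9578 was high for Serpina3i with Illumina STAR, at 16.7 CPM and a share of 0.0581%. Mouse ILB_9582 was high for Serpina3h, at 1.23 CPM with Illumina STAR and 2.37 with Ion Torrent STAR, and low for Serpina3j, at 10.5 with Ion Torrent GSNAP. Mouse UNT_9584 was low on Ion Torrent, for Serpina3c with GSNAP at 51.8 CPM and, with STAR + Bowtie2, for Serpina3k at 9697 CPM and for the cluster total at 1.04% of reads.

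The effect of IL-1β differed between platforms, by the tested platform-by-treatment term, for Serpina3c (-3.17), Serpina3i (-2.93) and Serpina3m (-0.69) with GSNAP, for Serpina3c (1.998) with STAR, and for Serpina3c (1.65), Serpina3f (0.80), Serpina3i (2.94) and Serpina3j (1.84) with STAR + Bowtie2. Their causes were not tested here. For Serpina3c and Serpina3i the study itself had reported that aligner and platform choice affected the fold change. It also measured both genes by qPCR and described them as induced by IL-1β.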

How the results depend on the processing

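The number of members with a called platform-by-treatment term changed with the fit. With GSNAP it was 3 (0.0642% of all genes) and became 5 by DESeq2 with the mouse as block (0.0963%) and 5 without UNT_9584 (0.148%). With STAR it was 1 (0.00642%) and became 0 without the replicate block (0%) and 0 by limma-voom (0%, with 1 member at an unadjusted p below 0.05). Leaving out each mouse gave 3 to 5 members (GSNAP, 0.0578% to 0.148% of all genes), 1 (STAR, 0.00642% to 0.0642%) and 3 to 5 (STAR + Bowtie2, 0.0642% to 0.109%). For the last of these the 4 members fell to 3 by limma-voom. Terms that changed sign were uncalled and near 0. That of Serpina3k was 0.00233 with GSNAP by DESeq2 size factors and by DESeq2, -0.00198 with STAR by both, and 0.0109 with STAR + Bowtie2 by both and 0.0103 over genes detected in both tables. Without a mouse it was 0.0112, 0.0228, 0.0279, 0.0332, 0.0483 or 0.0543 with GSNAP, -0.000546, -0.0149 or -0.0360 with STAR, and 0.000354, 0.00333, 0.0705 or 0.0763 for STAR + Bowtie2, while that of Serpina3f 0.00480 with STAR, and that of Serpina3g 0.1603 with STAR + Bowtie2. Of the treatment effects within tables, 527 of 530 values without a mouse and 356 of 369 under other settings kept their direction and side of the threshold. The exceptions with Serpina3j were in Illumina GSNAP, where the Mann-Whitney test (adjusted p = 0.135) and limma-voom (0.0652) lost the call, and in Ion Torrent STAR, where limma-voom (0.0427) and leaving out UNT_9574 (0.0352) gained it. Without scaling, 18.4% of all genes were called higher and 29.0% lower with Illumina GSNAP, and members still numbered 8. The causes were not tested. Serpina3h, Serpina3i and Serpina3j had groups with few reads, and depth limits their folds.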
